A study of Homo sapiens with 18 samples.

Results

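Superoxide dismutases, NRF2 target genes and the genes of iron storage and uptake were followed in LNCaP cells that had been exposed to macrophage-conditioned medium. The genes were 10 of the 28100 genes in the count table: SOD1, SOD2, NQO1, HMOX1, GCLM, TXNRD1, GPX4, FTH1, FTL and TFRC. They were picked by name, with earlier results of these data known. Each gene was represented by its transcript with the highest total count. All 10 passed the filter on low counts, which kept 17073 genes.

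LNCaP is a human prostate cancer cell line, and the labels give its genotype as WT in all 18 libraries. Polyadenylated RNA was sequenced from 6 groups of 3 libraries after 48 h of treatment. Control cells received RPMI medium with 10% heat-inactivated serum and no conditioned medium. The M0, M1 and M2 groups received medium conditioned by unpolarised, M1-polarised or M2-polarised macrophages of THP-1, a human monocytic leukaemia line, mixed at 1:4 with the control medium. The study asked what the macrophages' secreted factors do to LNCaP cells, and how far NF-κB signalling carries the effect of M1 medium. For that, IKK16, an inhibitor of IκB kinase, was added to M1 medium at 0.7 µmol/l in 1 group, and an equal amount of its solvent DMSO in another. No group received DMSO without conditioned medium. The design holds 1 prostate line and conditioned medium of 1 macrophage line. The labels number the replicates without saying whether they were separate cultures or separate batches of medium, so p-values here reflect variation among these libraries alone, and that variation may be technical.

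Superoxide dismutases convert superoxide to hydrogen peroxide, SOD1 with copper and zinc in the cytosol and SOD2 with manganese in the mitochondrial matrix. NRF2 (gene NFE2L2) is a transcription factor that KEAP1 marks for degradation. When KEAP1 is modified by electrophiles or bound by p62 (gene SQSTM1), NRF2 accumulates and, with a small MAF partner, binds antioxidant response elements in genes of quinone reduction, glutathione synthesis and the thioredoxin system. BACH1 is a repressor that competes for the same elements, above all at HMOX1. Ferritin is a shell of heavy (FTH1) and light (FTL) chains that stores iron. Iron-regulatory proteins bind a hairpin, the iron-responsive element, in the 5′ end of ferritin RNA, where they block translation, and in the 3′ end of TFRC RNA, where they protect the RNA from decay. SOD2 and FTH1 are known targets of NF-κB.

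The iron-responsive hairpins are shown because they set FTH1, FTL and TFRC apart from the other genes and because RNA counts do not measure the translational part of this control. They were searched in GENCODE 29 transcripts as a C, 5 further bases and the loop CAGTGN. Each line is a stretch of 30 bases in the sense of the RNA, written as DNA, with the loop in capitals. All lie in untranslated regions of build GRCh38.
FTH1, 5′ untranslated region, chr11:61967575-61967604, minus strand: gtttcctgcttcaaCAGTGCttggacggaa
FTL, 5′ untranslated region, chr19:48965333-48965362, plus strand: gtctcttgcttcaaCAGTGTttggacggaa
TFRC, 3′ untranslated region, chr3:196050980-196051009, minus strand: ataattatcggaagCAGTGCcttccataat
TFRC, 3′ untranslated region, chr3:196050576-196050605, minus strand: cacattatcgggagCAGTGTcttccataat
TFRC, 3′ untranslated region, chr3:196050464-196050493, minus strand: gtaattatcgggaaCAGTGTttcccataat

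The TFRC 3′ untranslated region, 2469 bases long, held 5 matches in all, of which 2 overlapped each other. Among 2855 such regions of a length within 10% of it, 59.75% held at least 1 match and 0.946% held as many. The pattern stood in 8.59% of 5′ untranslated regions of a length like that of FTH1 and in 8.12% of those like FTL. A match to these letters is a description and not evidence of binding.

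Promoter stretches are shown for GCLM and TXNRD1, which carry the core of the antioxidant response element, TGACNNNGC, close to a start site. RefSeq windows of 250 bases before to 50 bases after the start (GRCh38.p14, both strands searched) were matched for 7 of the 10 genes, in 13 windows. The core stood in 13.3% of all 35116 windows of that length. The lines give the 150 bases before the start, 5′ to 3′ on the gene's strand, with the core or its reverse complement in capitals.
GCLM, chr1:93909431-93909580, minus strand: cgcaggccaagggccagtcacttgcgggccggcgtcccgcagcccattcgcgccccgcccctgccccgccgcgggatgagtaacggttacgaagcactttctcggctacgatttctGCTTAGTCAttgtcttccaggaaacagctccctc
TXNRD1, upstream start, chr12:104215629-104215778, plus strand: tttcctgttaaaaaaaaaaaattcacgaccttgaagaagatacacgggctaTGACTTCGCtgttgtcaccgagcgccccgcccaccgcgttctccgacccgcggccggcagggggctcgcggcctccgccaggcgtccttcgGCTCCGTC
TXNRD1, downstream start, chr12:104286882-104287031, plus strand: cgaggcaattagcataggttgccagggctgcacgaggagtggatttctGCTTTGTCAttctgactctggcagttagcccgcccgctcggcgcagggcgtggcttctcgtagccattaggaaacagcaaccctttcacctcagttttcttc

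In GCLM the core covers positions -34 to -26 from the start. The upstream start of TXNRD1 has one copy at -99 to -91 and another from -8 to 1, of which the last base falls past the printed stretch. Its downstream start has 1 copy, at -102 to -94. The windows of SOD2, NQO1, GPX4, FTL and TFRC held no match to the core. The AP-1 motif TGANTCA (in 7.7% of all windows) and the NF-κB motif (in 5.9%) matched none of the 13 windows.

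The depth ran from 24202741.5 to 33814818 gene counts per library, and pairs of replicates differed by more than counting noise (chi-square per gene 2.7 to 21.5). Levels are given in CPM (read counts scaled to library size) after TMM scaling, and 3 counts, the upper limit that a count of 0 allows, came to 0.0899 to 0.126 CPM, for counting error only. The 10 prostate luminal markers checked, among them KLK3, KRT8 and KRT18, were all at 1 CPM or more in every group. Their summed level was 8419.5 to 8738 CPM in the control libraries and 2595 to 2700.2 CPM with M1 medium, with KLK3 at 3711 ± 209 CPM and 154 ± 6.76 CPM (mean ± SD, n = 3). With M1 medium 6 of the 10 were lower than in control, 3 higher and 1 not called (test and threshold given below). FOLH1 went from 863 to 1030.1 CPM, KRT8 from 351 to 493 CPM and EPCAM from 112 to 134 CPM. KRT18 was at 267 CPM in control and 263 CPM with M1 medium. Of 12 macrophage markers, 2 reached 1 CPM in the control group and 4 with M1 medium. CSF1R made up most of their sum, which was 228 to 231 CPM in control, 233 to 272 CPM with M0, 245 to 264 CPM with M1 and 244 to 268 CPM with M2 medium. With M1 medium CD68 was at 36.8 CPM (4.93 in control), ITGAM at 19.9 CPM (0.16) and LYZ at 2.28 CPM (0.0563). CSF1R went the other way, from 223 CPM in control to 195 CPM with M1 medium, and SPI1 from 0.531 to 0.13 CPM. Of the 5 macrophage markers that passed the filter, 3 were higher and 2 lower with M1 medium than in control. Of the 12, 3 had no count in any M1 library (PTPRC, TYROBP and MRC1), and 1 had none in control. The part of these markers in the results was not tested.

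With M1 medium all 10 genes were higher than in control, against 32.7% of all 17073 genes tested that were higher and 32.1% that were lower (edgeR's quasi-likelihood test, Benjamini-Hochberg adjusted p under 0.05). The median log2 fold change was 1.22 over the 10 genes and 0.00 over all genes. The 10 were chosen with earlier results of these data known, so these shares are given for scale and not as a test. The sizes differed widely: SOD2, FTH1 and HMOX1 rose more than 6-fold, GCLM and NQO1 by 3.49-fold and 2.63-fold, TFRC and FTL by 2.05-fold and 1.99-fold, TXNRD1 by 1.52-fold, and GPX4 and SOD1 by 1.17-fold and 1.13-fold. M0 medium gave 4 higher genes (SOD1, TXNRD1, FTL and TFRC; 7.06% of all genes were higher) and M2 medium 4 (SOD1, NQO1, TXNRD1 and TFRC; 5.34%), all of them by 1.30-fold or less. These comparisons share the control libraries, and in RNA from whole cultures fewer cells of a kind and less RNA per cell cannot be told apart.

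Set directly against the other conditioned media, M1 medium raised 8 of the 10 genes over M0 (33.4% of all genes were higher) and the same 8 over M2 (33.8%). SOD1 and GPX4 were not called in either, though both were called in both with the trend of counts with transcript length removed. None of the 10 was called between M2 and M0 medium, where edgeR called 0.105% of all genes (18 genes, all lower with M2; 928 had an unadjusted p under 0.05, and DESeq2 called 43 lower). IKK16 in M1 medium lowered SOD2 and FTH1 (13.2% of all genes were lower) and raised TFRC (13.9% were higher), so the number called was near that of all genes. Relative to control, 9 of the 10 genes were still higher in M1 medium with IKK16 (26.8% of all genes), all but GPX4.

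**Figure D1:**
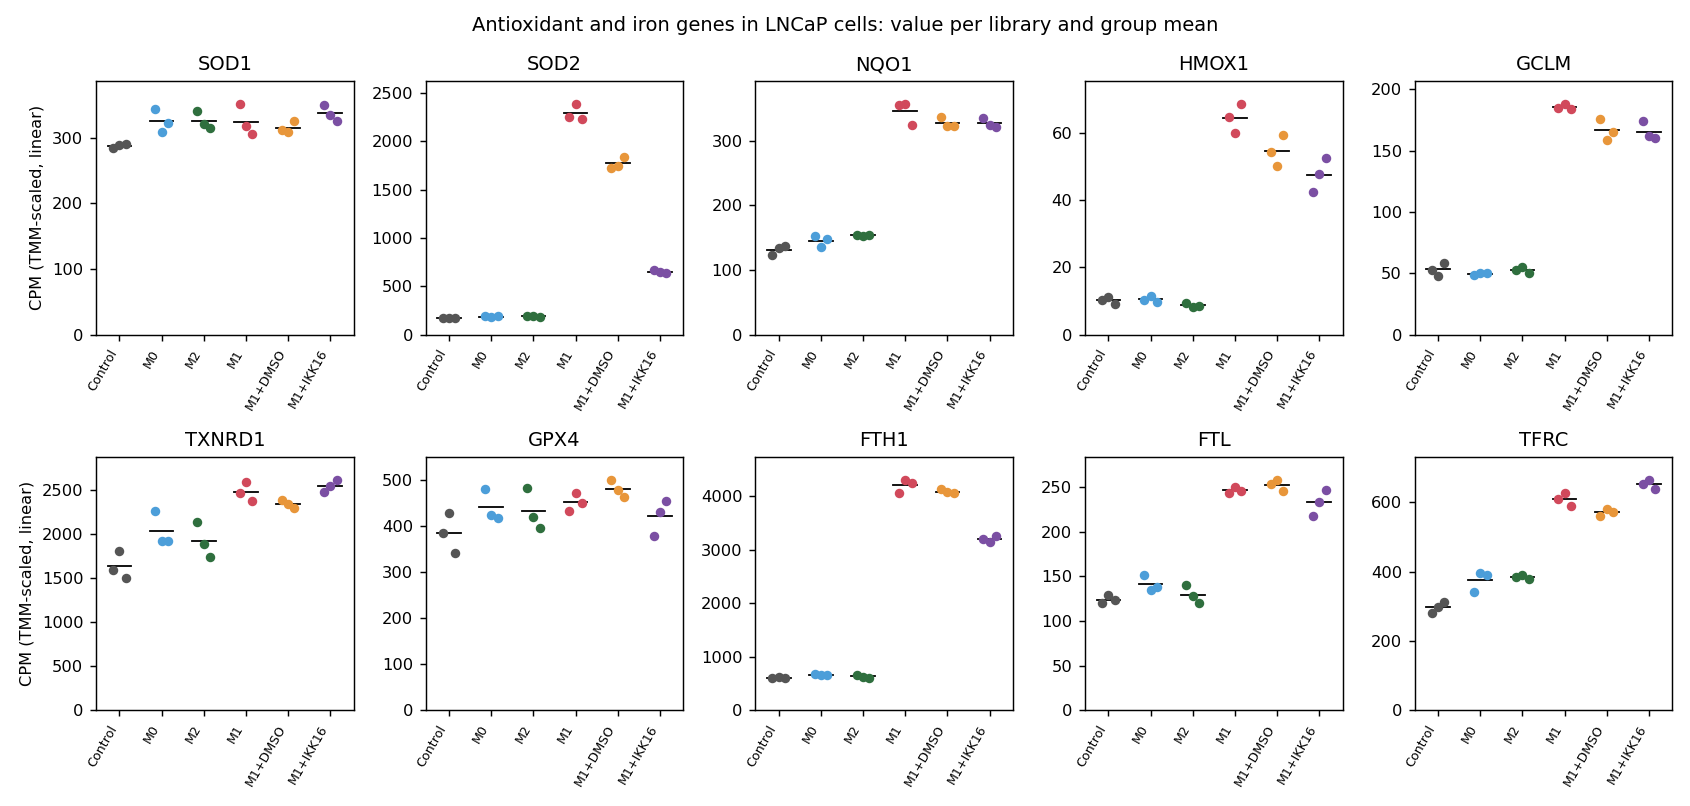
Level of each gene in each of the 18 libraries (y axis, CPM on a linear scale from 0, its own range per gene; x axis, group), with points for libraries and a line for the group mean. SOD2 and FTH1 stand high in all 3 M1 groups, and IKK16 takes SOD2 from 1769 to 653 CPM while NQO1 stays at 328 and 327 CPM.

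**Figure D2:**
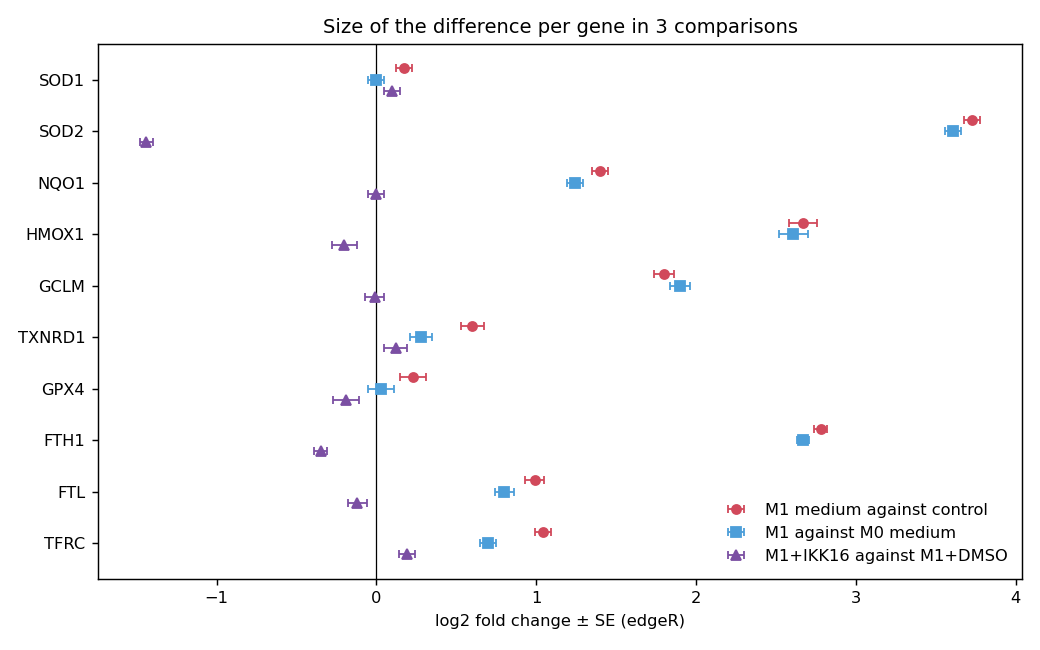
Log2 fold change (x axis, with its standard error as bars) of each gene (y axis) for M1 medium against control, M1 against M0 medium, and IKK16 against DMSO in M1 medium. SOD2 has both the largest rise with M1 medium among the 10 genes, 3.73, and the largest fall with IKK16, -1.44.

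SOD2, the mitochondrial manganese superoxide dismutase (chromosome 6, 159669069 to 159762281, GRCh38.p14), was the most responsive of the 10 genes. The control libraries held 171, 171 and 175 CPM, the M1 libraries 2252, 2383 and 2227 CPM. With M0 medium it was at 188, 185 and 188 CPM and with M2 medium at 193, 189 and 182 CPM. The M0 and M2 libraries lay just above the control libraries, and each M1 library was far above all of them. The rise with M1 medium over control was 13.3-fold (log2 3.73 ± 0.05 SE, edgeR adjusted p = 1.45e-25), and over M0 and M2 medium it was 12.2-fold in both cases (adjusted p = 2.67e-25 and 2.7e-25).

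SOD2 also carried the largest response to IKK16 of the 10 genes. M1 medium with DMSO gave 1719.7, 1748 and 1840 CPM and M1 medium with IKK16 gave 669, 652 and 636 CPM. The groups did not overlap, and the inhibited libraries remained above every control library. The fall with IKK16 was 2.71-fold (log2 -1.44 ± 0.04, edgeR adjusted p = 6.45e-17), and the level that remained was 3.78-fold over control (adjusted p = 1.42e-20). Of the difference between M1 medium with DMSO and control, 30.1% was left with IKK16, a ratio of group means in which the control had no DMSO. DMSO itself went with a lower SOD2 level in M1 medium, by 1.29-fold (log2 -0.37 ± 0.04, adjusted p = 5.71e-05). SOD2 was the 1 gene of the 10 called in that comparison, in which 1.97% of all genes were lower (336 genes, 47 without M1 replicate 2 and 678 without M1 replicate 3).

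The size of the SOD2 response depended on the transcript that was counted. Relative to the longest transcript, the transcript with the highest total has exons of its own. It overlaps genes on the opposite strand, ACAT2 by 1141 bases and WTAP by 139 bases. The use of strand in counting is not given in the sources used here. The longest transcript, without the own exons, held 60.6, 54.7 and 61.5 CPM in control and 2042, 2158 and 2029.5 CPM with M1 medium. On it the rise was 35.3-fold (log2 5.14 ± 0.06, edgeR adjusted p = 8.84e-27) and the fall with IKK16 3.00-fold (log2 -1.59 ± 0.05, adjusted p = 7.26e-17). The exons of the former that the longest lacks lie on chromosome 6 at 159730885 to 159730965, 159748538 to 159748676 and 159761037 to 159762529. Counted as the former minus the longest, they went from 113 ± 3.34 CPM in control to 211 ± 13.8 CPM with M1 medium (SD, n = 3). Further SOD2 transcripts, at 88.2 and 80.8 CPM in control, were set aside when these exons were found and may share part of them. Reads of SOD2 and of genes that overlap these exons cannot be told apart there. From control to M1 medium ACAT2 went from 122 to 100.1 CPM and WTAP from 80.6 to 132 CPM. With DMSO and with IKK16, ACAT2 was at 98.5 and 97.6 CPM, WTAP at 107 and 81.9 CPM and these exons at 175 and 122 CPM. The transcript with the highest total also shares 939 bases with SOD2-OT1 on the same strand, at 7.78 CPM in control. The part of these genes was not tested. With M0 and M2 medium SOD2 was 0.12 and 0.13 over control on the log2 scale on the transcript with the highest total (edgeR adjusted p = 0.0745 and 0.0712) and 0.01 and 0.02 on the longest, none of them called. DESeq2 called the former (0.11 and 0.12, adjusted p = 0.0485 and 0.0387), and in the own exons the difference was 0.17 with each medium and called (edgeR adjusted p = 0.0384 and 0.0437).

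**Figure D3:**
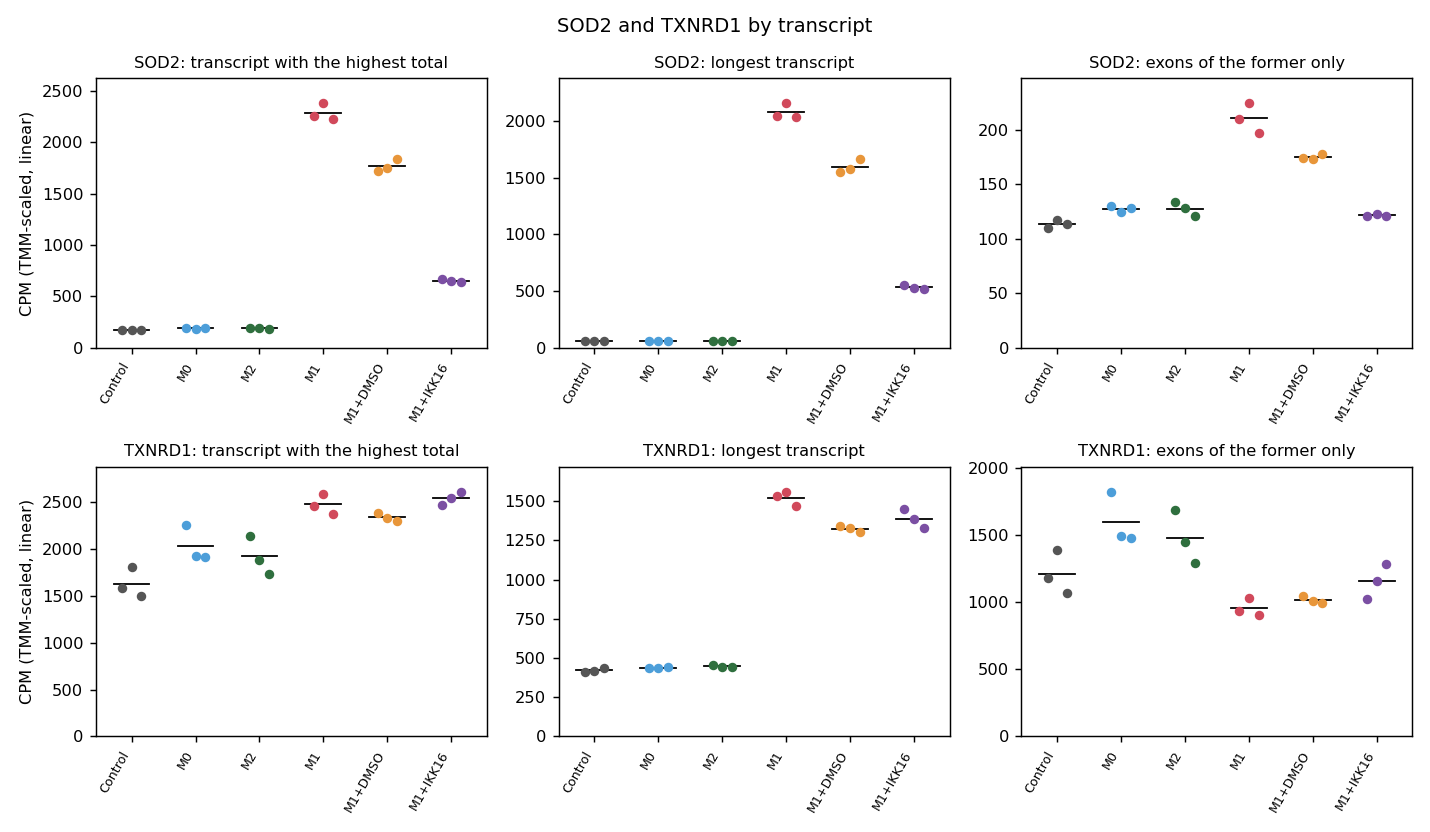
SOD2 (top) and TXNRD1 (bottom) by library (points; line, group mean; y axis, CPM on a linear scale) for the transcript with the highest total, the longest transcript, and the exons that the former has and the longest lacks. SOD2 rises with M1 medium in all 3 panels, while TXNRD1 rises from 421 to 1521 CPM on its longest transcript and is lower in the exons of the other one, 957 against 1212 CPM.

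SOD1, the cytosolic copper and zinc enzyme (chromosome 21, 31659693 to 31668931), moved little. The control libraries held 284, 288 and 291 CPM, the M0 libraries 343, 309 and 322 CPM, the M1 libraries 351, 317 and 305 CPM and the M2 libraries 341, 320.3 and 314 CPM. Every library with conditioned medium lay above every control library, and the 3 media overlapped each other. The rise was 1.13-fold with each medium (edgeR adjusted p = 0.00704 for M1, 0.0384 for M0 and 0.041 for M2). Between M1 and M0 medium the difference was -0.00 on the log2 scale, with a 95% interval of -0.11 to 0.10. IKK16 gave 350.1, 334 and 326 CPM against 311, 308 and 325 CPM with DMSO, a log2 difference of 0.10 ± 0.05 that was not called (adjusted p = 0.193).

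Other fits changed the SOD1 calls. Without M1 replicate 1 the rise with M1 medium was 0.12 and not called (edgeR adjusted p = 0.0756). Across genes, changes with M0 and M2 medium went with transcript length (Spearman -0.337 and -0.292, with M1 medium 0.062; genes are not independent replicates). With that trend removed, SOD1 was 0.05 and 0.07 over control with M0 and M2 medium, without a call, and 0.17 and 0.16 higher with M1 than with M0 and M2 medium (adjusted p = 0.00567 and 0.0106).

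NQO1, which reduces quinones without passing through a radical and is a classic NRF2 target (chromosome 16, 69709401 to 69726560), rose with M1 medium, and its levels with and without the inhibitor lay close together. Control libraries were at 123, 134 and 137 CPM and M1 libraries at 355, 357 and 325 CPM. M1 medium with DMSO gave 337, 323 and 323 CPM, and with IKK16 335, 325 and 321 CPM. All 9 libraries with M1 medium lay above the others, and those with DMSO and IKK16 overlapped. The rise was 2.63-fold over control (log2 1.40 ± 0.05, edgeR adjusted p = 8.68e-17) and 2.37-fold over M0 medium. The difference with IKK16 was -0.00 on the log2 scale (95% interval -0.10 to 0.10, adjusted p = 0.988).

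With M2 medium NQO1 was at 154, 153 and 155 CPM, above every control library, a rise of 1.17-fold (log2 0.23 ± 0.05, edgeR adjusted p = 0.0105). That call was lost without control replicate 1 (0.19, adjusted p = 0.101), without M2 replicate 1 (0.23, adjusted p = 0.0631) and with the 2 groups alone (0.24, adjusted p = 0.0638). With M0 medium it was at 153, 136 and 148 CPM, which overlapped control and was not called (adjusted p = 0.0607). M2 and M0 medium did not differ beyond the threshold.

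HMOX1, haem oxygenase 1, breaks haem down to biliverdin, carbon monoxide and free iron (chromosome 22, 35381096 to 35394207). It was at 10.3, 11.1 and 9.09 CPM in control, at 10.4, 11.6 and 9.75 CPM with M0 and at 9.46, 8.34 and 8.67 CPM with M2 medium. M1 medium took it to 64.9, 60 and 68.6 CPM, above all of these. The rise over control was 6.36-fold (log2 2.67 ± 0.09, edgeR adjusted p = 2.13e-17), and over M2 medium 7.30-fold. With DMSO the M1 libraries held 54.2, 50.3 and 59.5 CPM and with IKK16 42.5, 47.8 and 52.6 CPM, which overlapped. The difference with IKK16, -0.20 ± 0.08 on the log2 scale, was not called (adjusted p = 0.0858). It was called with the 2 groups alone (-0.20, edgeR adjusted p = 0.045) and without M1-IKK replicate 3 (-0.27, adjusted p = 0.0326).

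GCLM, the modifier subunit of the enzyme that commits glutamate and cysteine to glutathione (chromosome 1, 93885199 to 93909430), carries the match to the core printed above. Control libraries held 52.6, 48.2 and 58.6 CPM, M0 libraries 49, 50.3 and 50.1 CPM and M2 libraries 52.4, 55.1 and 50 CPM. The 3 groups overlapped. M1 libraries held 185, 188 and 184 CPM, a rise of 3.49-fold over control (log2 1.80 ± 0.06, edgeR adjusted p = 1.43e-17). IKK16 left GCLM at 174, 162 and 160 CPM against 176, 159 and 165 CPM with DMSO, a log2 difference of -0.01 with a 95% interval of -0.13 to 0.11 (adjusted p = 0.925). GCLC, the catalytic subunit of the same enzyme and an NRF2 target on the fixed list, rose by less, from 31.2 to 46.9 CPM (log2 0.59 ± 0.08, adjusted p = 7.54e-07).

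TXNRD1, the cytosolic thioredoxin reductase that keeps thioredoxin reduced (chromosome 12, 104215779 to 104350307), gave a different picture for each transcript. On the transcript with the highest total, control libraries held 1589.6, 1810 and 1499.7 CPM, M0 libraries 2263, 1925 and 1921 CPM, M1 libraries 2465, 2594 and 2376 CPM and M2 libraries 2142, 1889 and 1737 CPM. M1 lay above control, M0 and M2, and M2 overlapped control. The rise with M1 medium was 1.52-fold (log2 0.60 ± 0.07, edgeR adjusted p = 1.21e-07), with M0 medium 1.25-fold (adjusted p = 0.0119) and with M2 medium 1.18-fold (adjusted p = 0.0427).

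On the longest TXNRD1 transcript the control, M0 and M2 groups lay together at 421 ± 11.4, 438 ± 3.45 and 446 ± 6.48 CPM (SD, n = 3), and M1 medium gave 1533, 1561 and 1469 CPM. The rise with M1 medium was 3.63-fold there (log2 1.86 ± 0.04, edgeR adjusted p = 8.75e-21), and the calls with M0 and M2 medium were lost (0.05 and 0.08, adjusted p = 0.414 and 0.226). The exons that only the other transcript has lie at the upstream start, at 104215779 to 104215893, 104251527 to 104251678 and 104258019 to 104258079. They measure 115, 152 and 61 bases of 3836, yet held 1212 ± 166 CPM (SD, n = 3) of that transcript's 1633 CPM in control. Whether these reads come from TXNRD1 cannot be settled from the counts, which bears on every value of that transcript. The level of these exons ran the other way. It was 1178, 1392 and 1066 CPM in control and 1824, 1490.4 and 1479.6 CPM with M0 medium. With M1 medium it was 932, 1033 and 906 CPM. M1 medium was lower than control in these exons by 0.34 on the log2 scale (log2 fold change -0.34 ± 0.10, adjusted p = 0.00556). It was lower than M0 medium there too (-0.73 ± 0.10, adjusted p = 1.02e-06).

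TXNRD1 was not called with IKK16 in the fit over all groups. On the transcript with the highest total it gave 2472, 2543 and 2616 CPM against 2385, 2337 and 2297 CPM with DMSO, groups that did not overlap, with a log2 difference of 0.12 ± 0.07 (edgeR adjusted p = 0.23). With the 2 groups alone the difference was 0.12 ± 0.03 and called (adjusted p = 0.00986). On the longest transcript the difference was 0.07 ± 0.04 (adjusted p = 0.246), and in the own exons 0.19 ± 0.10 (adjusted p = 0.183).

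GPX4, the selenoenzyme that reduces lipid hydroperoxides in membranes and so protects cells from ferroptosis (chromosome 19, 1103994 to 1106779), changed least clearly. Control libraries held 384, 428 and 341 CPM and M1 libraries 432, 472 and 449 CPM. The groups were separate by a narrow margin, control replicate 2 lying just below the lowest M1 library. The rise was 1.17-fold (log2 0.23 ± 0.08, edgeR adjusted p = 0.0158), and it was not called without control replicate 3 (0.15, adjusted p = 0.119) or without M1 replicate 2 (0.20, adjusted p = 0.0664). M0 libraries, at 481, 423 and 417 CPM, and M2 libraries, at 482, 419 and 396 CPM, overlapped control and were not called. With IKK16 it was at 378, 430.1 and 455 CPM against 500.2, 479 and 463 CPM with DMSO, a log2 difference of -0.19 ± 0.08 that was not called (adjusted p = 0.0834). It was called in other fits: with the 2 groups alone (-0.19, edgeR adjusted p = 0.00832), with the length trend removed (-0.23, adjusted p = 0.00356), with no filter on low counts (-0.20, adjusted p = 0.033) and without M1-IKK replicate 3 (-0.25, adjusted p = 0.0473). With the length trend removed GPX4 was also higher with M1 than with M0 medium (0.21, adjusted p = 0.00222) and M2 medium (0.23, adjusted p = 0.00106), and with IKK16 than in control (0.15, adjusted p = 0.0306).

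FTH1, the ferritin heavy chain, which oxidises iron for storage (chromosome 11, 61964285 to 61967634), rose strongly with M1 medium. Control libraries held 609.8, 619.5 and 605 CPM, M0 libraries 679, 652 and 654 CPM, and M2 libraries 659, 626 and 613 CPM. M1 libraries held 4054, 4305 and 4241 CPM, far above all of these. The rise over control was 6.87-fold (log2 2.78 ± 0.04, edgeR adjusted p = 3.06e-24), and over M0 medium 6.35-fold.

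IKK16 lowered FTH1 by a small part of that rise. M1 medium with DMSO gave 4127, 4069.6 and 4056 CPM and with IKK16 3192, 3151 and 3262 CPM. The groups did not overlap, and the fall was 1.28-fold (log2 -0.35 ± 0.04, edgeR adjusted p = 3.13e-07), with 74.6% of the difference from control left. The level carries 2 uncertainties: GENCODE 29 annotates 25 pseudogene copies of FTH1, and FTH1 overlaps BEST1 on the opposite strand by 880 bases. BEST1, a chloride channel gene, was counted at 206 CPM in control and 1458 CPM with M1 medium, and without known strand its reads and those of FTH1 cannot be told apart.

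FTL, the ferritin light chain, which supports growth of the iron core (chromosome 19, 48965309 to 48966879), rose less. Control libraries were at 120.1, 129 and 123 CPM, M1 libraries at 243, 250.4 and 245 CPM. Every M1 library was above every control library, by 1.99-fold in the fit (log2 0.99 ± 0.06, edgeR adjusted p = 5.27e-13). M0 libraries, at 151, 135 and 138 CPM, were also above control (log2 0.19 ± 0.06, adjusted p = 0.0412), a call lost without any 1 of control replicates 1 and 3 and M0 replicates 1 and 3 (adjusted p = 0.0747 to 0.244) and, with transcript length accounted for, at 0.06. M2 libraries, at 140.3, 128 and 120 CPM, overlapped control. IKK16 gave 218, 233 and 247 CPM against 253, 258 and 246 CPM with DMSO, a difference of -0.12 ± 0.06 that was not called (adjusted p = 0.147) but was with the length trend removed (-0.15, adjusted p = 0.00792). The annotation holds 16 pseudogene copies of FTL.

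Because heavy and light chains rose by different amounts, their ratio shifted. Counted per length of transcript, FTH1 exceeded FTL by 3.63, 3.44 and 3.51 times in the control libraries and by 11.9, 12.3 and 12.4 times with M1 medium. M0 medium (3.35 ± 0.131, SD, n = 3) and M2 medium (3.50 ± 0.147) stayed near the control ratio of 3.53 ± 0.0968. With DMSO the M1 ratio was 11.7, 11.3 and 11.8, and with IKK16 10.5, 9.65 and 9.44, lower in each library than in any with DMSO and higher than in any without M1 medium. No test was run on the ratio beyond those of the 2 genes. The overlap of FTH1 with BEST1 and the pseudogene copies of both genes bear on it.

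**Figure D4:**
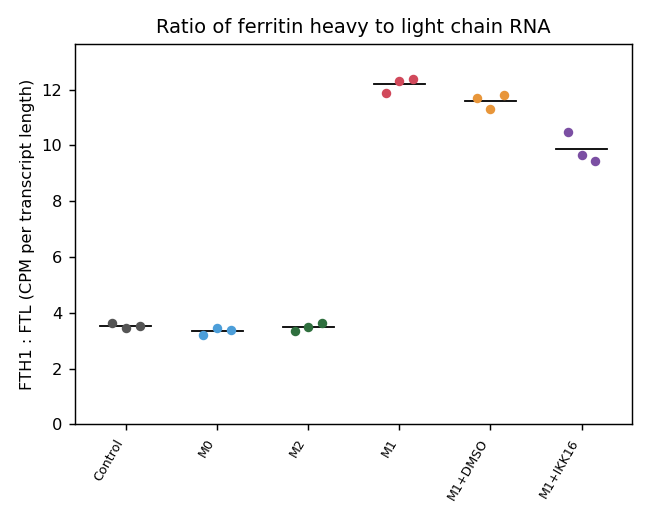
Ratio of FTH1 to FTL per transcript length (y axis, linear from 0) in each library (points; line, group mean) by group. The ratio lies between 3.21 and 3.65 in all libraries without M1 medium and between 9.44 and 12.4 in those with it.

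TFRC, the transferrin receptor through which cells import iron (chromosome 3, 196049284 to 196082090), rose alongside ferritin. Control libraries held 281, 298 and 312 CPM, M0 libraries 340.3, 397 and 390.1 CPM, M2 libraries 385, 390.5 and 380.1 CPM and M1 libraries 610.4, 627 and 589 CPM. All conditioned media lay above control, M0 and M2 overlapped, and M1 lay above both. The rise over control was 2.05-fold with M1 medium (log2 1.04 ± 0.05, edgeR adjusted p = 3.18e-14), 1.26-fold with M0 (adjusted p = 0.00249) and 1.30-fold with M2 medium (adjusted p = 0.000695). These 3 calls held in every other fit that was tried, including those with 1 library left out.

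TFRC was the 1 gene of the 10 called higher with IKK16 in the fit over all groups, and TXNRD1 joined it with the 2 groups alone. It stood at 653, 665 and 639 CPM with IKK16 and at 559.9, 581 and 573 CPM with DMSO. The groups did not overlap, and the difference was 1.14-fold (log2 0.19 ± 0.05, edgeR adjusted p = 0.00886). FTH1 fell and TFRC rose with IKK16, the reverse of each other, whereas both rose with M1 medium.

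The calls with M0 and M2 medium rested on few libraries. Without control replicate 1, or without M0 replicate 1, 1 of the 10 genes, TFRC, was called with M0 medium, and without control replicate 3 or M0 replicate 3 there were 2. With M2 medium TFRC was again the 1 gene called without control replicate 1 or without M2 replicate 1, and 2 genes were called without control replicate 3 or M2 replicate 2. Over all genes the number higher with M0 medium went from 1206 to 23 without control replicate 1, and with M2 medium from 911 to 86 without M2 replicate 1.

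Of 9 regulators of NRF2, 8 were higher with M1 medium and none lower, against 32.7% and 32.1% of all genes (median log2 fold change 0.83, against 0.00 over all genes). This list and those that follow were also chosen with earlier results of these data known, so the shares are a description. NFE2L2 itself went from 54.9 to 74.5 CPM (log2 0.44 ± 0.06, edgeR adjusted p = 2.59e-07). SQSTM1, whose protein p62 takes KEAP1 out of action, went from 496 to 4486 CPM, 9.05-fold (log2 3.18 ± 0.05, adjusted p = 1.41e-24). The small MAF partner MAFF rose 3.83-fold from 4.11 CPM, and the repressor BACH1 from 19.6 to 36.1 CPM (log2 0.88 ± 0.08, adjusted p = 1.6e-09). KEAP1 was the 1 gene not called, at 116 and 108 CPM (log2 -0.09 ± 0.06, adjusted p = 0.159).

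With IKK16, 1 of these 9 regulators was lower and none higher. That was SQSTM1, from 4646 to 4219.6 CPM (log2 -0.14 ± 0.04, edgeR adjusted p = 0.0161). NFE2L2 (-0.06 ± 0.06), KEAP1 (-0.10 ± 0.06) and BACH1 (0.04 ± 0.08) were not called. M0 and M2 medium each gave 2 lower and no higher genes among the 9. Of all 17073 genes, 770 were lower and 1206 higher with M0 medium, and 575 and 911 with M2 medium.

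Of 25 NRF2 targets outside the 10 genes, 23 were tested, and with M1 medium 19 were higher, 2 lower and 2 not called (median log2 fold change 0.61). For this list and those that follow, the shares over all genes with M1 medium were 32.7% higher and 32.1% lower, and with IKK16 13.9% and 13.2%. AKR1C1 and AKR1C2, aldo-keto reductases that act on steroids and carbonyls, were low in control, at 0.273 and 0.484 CPM, and stood at 102 and 47.3 CPM with M1 medium (log2 8.51 ± 0.15 and 6.60 ± 0.16, edgeR adjusted p = 2.73e-23 and 1.89e-20). Their sequences are near identical, so the split of reads between them is uncertain. The 2 lower genes were the efflux pump ABCC4 (log2 -0.84 ± 0.05) and glutathione reductase GSR (-0.26 ± 0.04). With M0 medium 6 of the 23 were higher and 1 lower (1206 and 770 of all 17073 genes), and with M2 medium 4 and 2 (911 and 575).

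IKK16 moved these targets in both directions, 7 higher and 6 lower of 23, with a median of -0.01. The cystine importer SLC7A11 (log2 0.32 ± 0.08, edgeR adjusted p = 0.00345) and malic enzyme ME1 (0.23 ± 0.05, adjusted p = 0.00334) were higher. AKR1C1 fell from 69.8 to 32.7 CPM (-1.09 ± 0.08, adjusted p = 2.89e-10) and AKR1C2 from 35.1 to 17.6 CPM (-0.99 ± 0.10, adjusted p = 5.74e-08). NQO1 and GCLM, with intervals around 0, thus lay between targets that rose and targets that fell.

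Other enzymes of superoxide, peroxide and thiol chemistry showed no common direction with M1 medium. Of 22 listed, 21 were tested, with 6 higher, 9 lower and 6 not called (median 0.01). Glutathione peroxidases GPX2 (0.26 to 5.81 CPM, log2 4.44 ± 0.32, edgeR adjusted p = 1.87e-11) and GPX3 (0.89 to 4.06 CPM, 2.20 ± 0.26, adjusted p = 1.17e-07) rose from low levels. SOD3, the extracellular superoxide dismutase, fell from 20.9 to 9.27 CPM (-1.17 ± 0.11, adjusted p = 1.14e-09), so the 3 dismutase genes gave a large rise, a small rise and a fall. GPX8, a peroxidase of the endoplasmic reticulum, fell by 0.75.

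With IKK16, 2 of these 21 were higher and 5 lower. The mitochondrial peroxiredoxin PRDX3 (log2 0.36 ± 0.08, edgeR adjusted p = 0.00111) and PRDX4 of the endoplasmic reticulum (0.34 ± 0.08, adjusted p = 0.00227) rose, and the glutaredoxin GLRX (-0.49 ± 0.11) and SOD3 (-0.46 ± 0.12) fell. SOD2 and SOD3 therefore both fell with IKK16, although they had moved in opposite directions with M1 medium.

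Among the NADPH oxidases, which make superoxide, and their subunits, 8 of 17 were expressed enough to be tested, and 5 rose and 1 fell with M1 medium (median 0.51). The oxidase NOX1 went from 5.35 to 34.8 CPM (log2 2.70 ± 0.10, edgeR adjusted p = 4.06e-17) and the GTPase RAC1, which takes part in oxidase assembly, from 136 to 209.5 CPM (0.62 ± 0.05). NOX5 fell from 7.34 to 2.32 CPM (-1.67 ± 0.15, adjusted p = 8.28e-10). With IKK16 none rose and 3 fell, among them NOX1 (28.1 to 19.7 CPM, -0.52 ± 0.09) and its activator NOXA1 (-0.36 ± 0.11).

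Of 22 tested genes of iron transport and its regulation, 8 rose and 4 fell with M1 medium (median 0.11), the number that rose being near the 32.7% of all genes that were higher. LCN2, a secreted protein that captures iron-binding siderophores, had 0.145 CPM in control, near the level of 3 counts, and 456 CPM with M1 medium (edgeR adjusted p = 4.3e-27). The ferroxidase ceruloplasmin, CP, rose 13.1-fold from 11.5 CPM (log2 3.71 ± 0.07, adjusted p = 2.84e-22). The mitochondrial iron importer SLC25A37 (-0.86 ± 0.05) and the metal transporter SLC39A8 (-0.73 ± 0.06) fell.

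IKK16 raised 3 and lowered 3 of these 22. HFE, a partner of the transferrin receptor (log2 0.36 ± 0.10, edgeR adjusted p = 0.0127), and FBXL5, which marks iron-regulatory protein 2 for degradation (0.21 ± 0.07, adjusted p = 0.0208), rose. CP fell from 106 to 40.8 CPM (-1.37 ± 0.06, adjusted p = 1.77e-13) and lactoferrin, LTF, from 24.5 to 7.76 CPM (-1.66 ± 0.13, adjusted p = 6.48e-10). LCN2, in contrast, was at 408 CPM with DMSO and 384 CPM with IKK16 and was not called (-0.09 ± 0.06, adjusted p = 0.285); it was singled out here after its value was seen.

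In haem synthesis and breakdown, 2 of 13 genes rose and 6 fell with M1 medium (median -0.05), while HMOX1, counted with the 10 genes, rose. ALAS1, which catalyses the first step of haem synthesis, went from 84.6 to 139 CPM (log2 0.72 ± 0.05, edgeR adjusted p = 3.53e-12). The haem-binding protein hemopexin, HPX, rose from 0.498 to 1.31 CPM (1.39 ± 0.35, adjusted p = 0.00127). Later steps were lower, with CPOX at -1.05 ± 0.07 and ferrochelatase, FECH, which inserts the iron, at -0.55 ± 0.05. With IKK16, 3 rose and 3 fell, among them CPOX (0.31 ± 0.07) upward and ALAD (-0.30 ± 0.06) and HPX (-1.49 ± 0.40) downward.

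Genes of lipid peroxidation and ferroptosis gave 6 higher and 5 lower of 13 with M1 medium (median 0.11). PTGS2, cyclooxygenase 2, went from 0.0915 CPM, at the level of 3 counts, to 6.39 CPM (edgeR adjusted p = 2.21e-15), and the glutathione-degrading enzyme CHAC1 from 36.3 to 58 CPM (log2 0.67 ± 0.06). ACSL4, which loads polyunsaturated fatty acids into membranes (-0.87 ± 0.21), and AIFM2, a suppressor of ferroptosis (-0.75 ± 0.17), fell, both from under 5 CPM. IKK16 raised PTGS2 (0.54 ± 0.13, adjusted p = 0.004) and lowered 4 genes, among them ALOX12 (-0.43 ± 0.14) and CHAC1 (-0.23 ± 0.06).

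The genes whose levels ran most closely with each of the 10 over the 18 libraries were found by Pearson correlation of log2 CPM over the genes tested. The 18 points share 6 treatments, so the correlations are a description. SOD2 ran with CTSO, GLUL and NCEH1 (r = 0.999, 0.999 and 0.998), and GLUL, glutamine synthetase, went from 112 CPM in control to 599 CPM with M1 medium, 474 CPM with DMSO and 271 CPM with IKK16. NQO1 ran with SQOR (0.997), OPTN and TNFSF15 (both 0.994), and SQOR, a mitochondrial sulfide oxidase, was at 189.7 CPM with DMSO and 173 CPM with IKK16. HMOX1 ran with BCL3 (0.996), PSAP and TNIP1, and GCLM with SLFN5, SRD5A3-AS1 (both 0.998) and SRD5A3.

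FTH1 ran with CES1 and BEST1 (both 0.999) and LRG1 (0.998), of which BEST1 shares its bases. FTL ran with NEU1, SYS1 and CD63 (all 0.994), of which NEU1 and CD63 encode proteins of the lysosome. The closest genes to TFRC (ANKRD22, 0.986), TXNRD1 (SNX22, 0.974), GPX4 (NUDT14, 0.935) and SOD1 (PSMB1, 0.885) followed less closely.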

How the data were processed

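Expected counts, 1 per RefSeq transcript and library, were deposited by the authors in a single table of raw values in steps of 0.5. Per the submitters' processing notes, hg38, Trimmomatic, BWA 0.7.17 and HOMER 4.10 were used; for their roles, strandedness and reads with several matches the settings were not given in the sources used here. Of 70507 transcripts, 69830 were named by an NCBI RefSeq gene table (GRCh38.p14) and 343 by GENCODE 29, and the 334 unnamed (0.088 to 0.109% of counts) were left out. Each gene was represented by its transcript of highest total, since reads recur in several transcripts, and counts were rounded to whole numbers.

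Tests used R 4.3.3 and edgeR 4.0.16 (TMM scaling, filterByExpr, quasi-likelihood test over all 18 libraries, Benjamini-Hochberg adjustment over 17073 genes; called at adjusted p under 0.05), after the procedure was tested on simulated data. CPM are TMM-scaled. Intervals of 95% are from the standard error.

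The 10 genes and the lists were chosen with earlier results of these data known. Besides the 10, NFE2L2, KEAP1 and BACH1, the text names from each list up to 2 genes per direction, called without overlap and with at least 1 CPM in 1 group, by size of change; GCLC, LCN2 with IKK16 and the marker genes fall outside that rule, and 1 gene it picks is not reported here. The 3 most alike genes were taken for each of the 10.

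Alternatives were DESeq2 1.42.0, its size factors, other filters, the 2 groups alone, a replicate block, the longest transcript, removal of the transcript-length trend, and each library left out. Counting the own exons of SOD2 and TXNRD1, as the transcript with the highest total minus the longest, was added after seeing the data. For SOD2, other transcripts may share part of these exons. Replicate numbers did not pair the libraries (correlations of same-numbered deviations -0.148 to 0.154).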

Additional observations from a re-analysis of the deposited data

How the results depend on the processing

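Of 90 results for the 10 genes in 9 comparisons, 47 were called, and 39 of these kept call and direction under every setting tried other than the own exons; of the 43 not called, 25 had no call under any. With M0 medium 4 genes were called, 2 with the length trend removed, 7 with DESeq2, 2 with the 2 groups alone, and 1 to 5 without 1 library. With M2 medium 4 were called, 1 with the 2 groups alone and 1 to 5 without 1 library. With IKK16 against DMSO 3 were called, 5 with the length trend removed, 6 with the 2 groups alone and 3 to 5 without 1 library. With DMSO against M1 medium alone 1 was called, 2 on the longest transcript, 2 with the length trend removed and 3 with the 2 groups alone. SOD1 changed sign with the length trend removed, to 0.17 for M1 against M0 and 0.16 for M1 against M2 medium. In its own exons, counted after seeing the data, TXNRD1 turned to -0.34 with M1 medium against control, -0.73 against M0 medium, -0.62 against M2 medium and -0.07 for M1 medium with IKK16 against control. The cause of these shifts was not tested.

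Replicate numbers did not pair the libraries, and a fit with the replicate number as a block left 89 of the 90 results on the same side; with it FTL in M0 medium against control had an edgeR adjusted p of 0.0501, and 3 genes were called with M0 medium. Over all genes, the number higher with M0 medium was 517 with the 2 groups alone and 1466 with DESeq2, with M2 medium 142 and 1170; lower with M0 medium 276 and 1241, with M2 medium 54 and 871.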
